A study of Homo sapiens with 12 samples.

Results

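The 10 genes described here encode the enzyme that removes the 5′ cap of messenger RNA, its activators, the nuclease that then degrades the message, and a pair of poly(A)-shortening enzymes. They are DCP2, DCP1A, DCP1B, EDC3, EDC4, XRN1, PATL1, DDX6, CNOT6 and CNOT6L, taken by name out of the 61860 genes in each of the count tables, and all 10 were found. The group was drawn up because DCP2 was among the genes that rose most with siRNA against ZNF783. Its values with that siRNA, and those of the other 9 genes in the same contrast, are therefore given as a description without a p-value.

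Most cytoplasmic messenger RNA is degraded in a set order. The poly(A) tail is shortened first, by the PAN2-PAN3 and CCR4-NOT complexes. The cap is then hydrolysed by DCP2, which works with DCP1 and with enhancers of decapping, and XRN1 digests the exposed body from its 5′ end. Many of these proteins gather in cytoplasmic granules called processing bodies. Their own messages are expressed in nearly all cell types.

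Total RNA was sequenced and read as counts per gene. All 12 libraries came from 22Rv1, a line of human prostate carcinoma cells established out of a xenograft and grown here in RPMI-1640 with fetal bovine serum, in a study of phosphorylated RB, the transcription factor ETS1 and CDK4/6 inhibitors. The groups, of 3 libraries each, were cells given siRNA against ETS1, cells given siRNA against the zinc finger protein ZNF783, the controls of the ETS1 experiment and the controls of the ZNF783 experiment. No drug is named for any group, and the siRNA sequences and harvest times were not used here. Whether replicates came from separate cultures is not stated in the labels, so p-values measure only how these samples spread, and that spread may be technical.

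Total counts ran from 13518177 to 48996691 per library, and the floor for an undetected gene, set at 3 counts per library, equals 0.0612 to 0.222 CPM, the count scaled to an equal library total. All 9 prostate epithelial markers reached at least 10 CPM in their highest library, though KLK3 was at 9.21 CPM in its lowest. The sums of 4 leukocyte and 3 endothelial markers were at most 0.521 and 1.16 CPM. The sum of 5 fibroblast markers ran from 14.8 to 28.8 CPM, with COL1A1 at 12.7 to 28.05 CPM. ETS1 itself had 0 to 3 counts in each of the 12 libraries, controls included, so the ETS1 label could not be checked on its target. ZNF783 stood at 28.7, 27.4 and 28.0 CPM with its siRNA, against 33.8, 34.9 and 35.7 CPM in its controls (log2 fold change -0.31, SE 0.055, adjusted p = 2.46e-05, edgeR quasi-likelihood test with Benjamini-Hochberg adjustment). ETS1 siRNA replicate 1 stood apart from the other libraries of its group: its counts differed from theirs by 40.3 and 38.9 in chi-square per degree of freedom, against 1.36 to 2.93 for all other pairs of replicates. Results on ETS1 siRNA are given with and without it. ZNF783 was lower with ETS1 siRNA too, at 12.5, 18.7 and 18.5 CPM, against 21.0, 21.6 and 22.3 CPM in those controls. On the log2 scale this is -0.38 with replicate 1 (edgeR, adjusted p = 0.258) and -0.23 without it (adjusted p = 0.00146). For ZNF783, the effect of its own siRNA minus that of ETS1 siRNA was 0.05 (edgeR, adjusted p = 0.925). A fall of ZNF783 was therefore not limited to its own siRNA, and the cause was not tested.

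Promoter windows of 4 genes are printed here because these genes carry the results below. DCP2 and XRN1 were higher with either siRNA, and DCP1A and EDC4 were lower with ETS1 siRNA without replicate 1. Each window runs 250 bases before to 50 bases after the transcription start, 5′ to 3′ on the gene's strand, from RefSeq on GRCh38.p14. The windows are chr5:112976548-112976847 on the plus strand for DCP2, chr3:142447988-142448287 on the minus strand for XRN1, chr3:53347494-53347793 on the minus strand for DCP1A and chr16:67872802-67873101 on the plus strand for EDC4. Capitals mark matches on either strand to CCGGAA, a core bound by ETS-family factors such as ETS1.
DCP2: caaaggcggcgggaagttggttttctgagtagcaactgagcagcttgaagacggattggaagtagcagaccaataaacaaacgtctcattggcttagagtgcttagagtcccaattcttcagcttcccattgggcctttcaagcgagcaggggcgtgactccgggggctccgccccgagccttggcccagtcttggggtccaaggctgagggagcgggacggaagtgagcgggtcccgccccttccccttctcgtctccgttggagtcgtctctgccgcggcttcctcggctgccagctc
XRN1: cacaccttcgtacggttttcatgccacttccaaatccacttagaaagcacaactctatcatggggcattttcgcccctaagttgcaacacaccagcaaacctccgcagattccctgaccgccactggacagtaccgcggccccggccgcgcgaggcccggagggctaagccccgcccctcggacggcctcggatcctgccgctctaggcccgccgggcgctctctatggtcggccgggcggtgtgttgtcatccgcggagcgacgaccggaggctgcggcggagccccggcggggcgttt
DCP1A: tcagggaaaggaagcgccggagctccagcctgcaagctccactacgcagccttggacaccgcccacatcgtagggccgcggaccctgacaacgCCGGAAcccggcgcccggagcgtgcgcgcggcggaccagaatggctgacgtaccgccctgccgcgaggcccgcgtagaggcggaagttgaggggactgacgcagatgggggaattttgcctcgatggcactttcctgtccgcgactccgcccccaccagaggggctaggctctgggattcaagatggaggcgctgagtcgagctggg
EDC4: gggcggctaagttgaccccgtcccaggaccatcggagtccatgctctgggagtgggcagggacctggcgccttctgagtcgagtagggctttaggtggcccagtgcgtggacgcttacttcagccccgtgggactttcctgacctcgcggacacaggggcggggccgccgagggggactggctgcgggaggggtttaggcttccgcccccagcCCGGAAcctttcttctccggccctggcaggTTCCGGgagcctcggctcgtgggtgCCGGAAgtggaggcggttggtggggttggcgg

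The windows of DCP2 and XRN1 hold no CCGGAA, that of DCP1A holds 1 match and that of EDC4 holds 3. Among all 10 genes, with 14 windows between them because CNOT6L and DDX6 have several starts, 5 have a match: DCP1A, DCP1B, EDC3, EDC4 and CNOT6L. Of 35116 promoter windows of the same length in the RefSeq table, 17.2% hold CCGGAA. That share is of single windows, not matched for GC content. A gene among the 10 counts if any of its windows matches, as CNOT6L does through 1 of its windows. The counts are therefore not like for like. The longer CCGGAAGT, which contains it, was found in EDC3 and EDC4 and in 4.14% of all windows. The 4-letter core GGAA on either strand is in 95.5% of windows and in all 10 genes, and so separates nothing. A match describes these letters only and is not evidence of binding. Other spellings around GGAA were not marked, and the windows of DCP2 and DCP1A both hold cggaagt, the longer form without its first letter. The printed windows were picked by response, and ETS1 itself had 0 to 3 counts in each library. The lower value of EDC4 was not kept after a correction for GC content and length, given below. Whether a match bears on a response was not tested.

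The genes differ widely in level. To set genes of unlike length side by side, levels were divided by kilobases of exon over all transcripts of a gene. The order depends on that length. On this scale the RNA helicase DDX6 was highest in the ETS1 controls (34.4 ± 0.228 CPM per kb, SD, n = 3) and in the ZNF783 controls (31.1 ± 0.562). The deadenylase CNOT6 came next, at 27.2 ± 0.615 CPM per kb in the ETS1 controls and 22.3 ± 0.669 in the ZNF783 controls. The decapping scaffold PATL1 followed, at 22.9 ± 1.06 CPM per kb in the ETS1 controls and 20.1 ± 0.314 in the ZNF783 controls. DCP1B was lowest, at 3.70 ± 0.312 CPM per kb in the ETS1 controls and 2.93 ± 0.283 in the ZNF783 controls. Neighbours among these top 3 genes did not overlap in their libraries. In bulk RNA, fewer cells with a message and less message per cell cannot be told apart.

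The middle of the order was not the same in the control groups. In the ETS1 controls DCP2 followed PATL1 (16.4 ± 0.285 CPM per kb), DCP1A (15.2 ± 0.267) and EDC3 (15.2 ± 0.535) came next with libraries that overlapped each other, and EDC4 followed at 13.4 ± 0.178. In the ZNF783 controls EDC3 (18.4 ± 0.515) and EDC4 (18.2 ± 0.36) followed PATL1, also overlapping each other, and DCP2 came after DCP1A (14.3 ± 0.707), at 12.5 ± 0.602. XRN1 and CNOT6L took the next places above DCP1B in both, with XRN1 at 10.4 ± 0.273 CPM per kb in the ETS1 controls and 10.5 ± 0.193 in the ZNF783 controls. The control groups belong to separate experiments, and their difference was not tested.

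**Figure D1:**
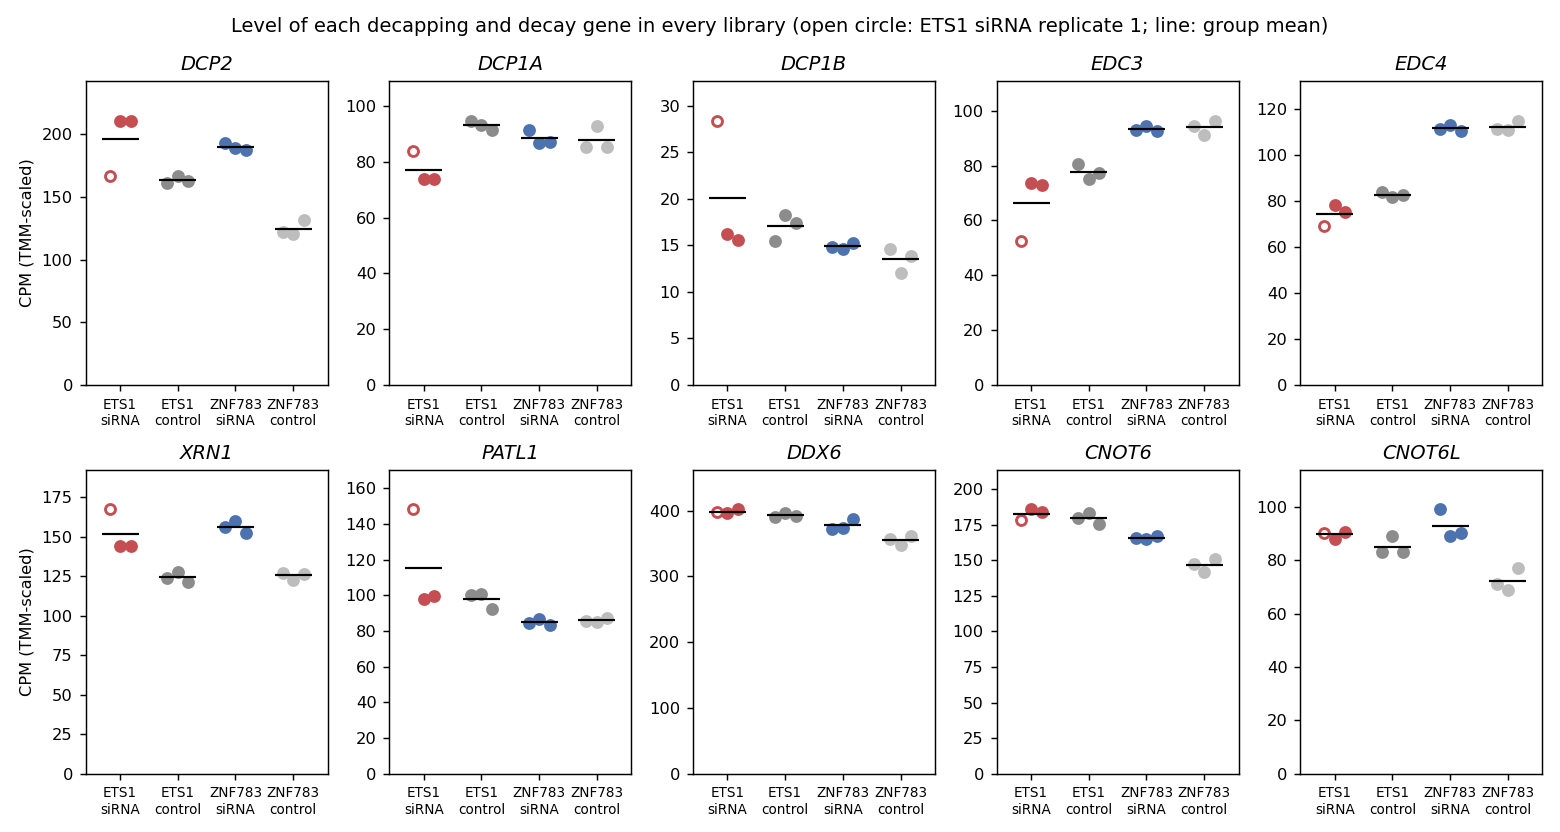
Level of each of the 10 genes in every library, in TMM-scaled CPM (vertical axes, each from 0), for ETS1 siRNA, ETS1 controls, ZNF783 siRNA and ZNF783 controls. Each point is 1 library, lines are group means and open circles are ETS1 siRNA replicate 1. DCP2 lies between 187.9 and 193.0 CPM in the ZNF783 siRNA libraries and between 120.4 and 131.6 CPM in their controls.

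With ZNF783 siRNA, the largest difference among the 10 genes was that of DCP2, the catalytic subunit of the decapping enzyme (ENSG00000172795, GRCh38 chromosome 5, 112976702 to 113020970, plus strand). It measured 193.0, 189.4 and 187.9 CPM with ZNF783 siRNA, against 122.2, 120.4 and 131.6 CPM in the controls. The groups did not overlap, and the lowest siRNA library lay well above the highest control. The log2 fold change was 0.61 (SE 0.032), or 1.52-fold.

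XRN1, the 5′ to 3′ exonuclease that acts after decapping (chromosome 3, 142306607 to 142448062, minus strand), was also higher in every ZNF783 siRNA library. Its levels were 156.0, 160.3 and 152.2 CPM with ZNF783 siRNA and 127.1, 122.9 and 126.6 CPM in the controls. The log2 fold change was 0.32 (SE 0.032), a smaller step than that of DCP2 but likewise with no overlap.

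CNOT6 and CNOT6L are alternative catalytic subunits of the CCR4-NOT deadenylase, and both were higher. CNOT6L (chromosome 4, 77713387 to 77819615, minus strand) measured 99.2, 89.2 and 90.2 CPM with ZNF783 siRNA, against 71.0, 69.1 and 77.1 CPM in the controls (log2 fold change 0.36, SE 0.044). CNOT6 (chromosome 5, 180494412 to 180578405, plus strand) measured 165.7, 164.9 and 167.4 CPM with the siRNA and 147.3, 142.0 and 150.7 CPM in the controls (0.18, SE 0.031). In neither gene did the groups overlap, although CNOT6L varied more between libraries.

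The decapping activators showed little. DDX6, a helicase that represses translation and promotes decapping, averaged 377.8 ± 8.54 CPM with ZNF783 siRNA and 355.6 ± 6.43 CPM in the controls, a log2 fold change of 0.09 (SE 0.026). DCP1B, a cofactor of DCP2, measured 14.9, 14.6 and 15.3 CPM with the siRNA and 14.6, 12.1 and 13.9 CPM in the controls. Its groups were just apart, and its log2 fold change of 0.14 had an SE of 0.082.

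The other cofactor DCP1A, the enhancers of decapping EDC3 and EDC4, and PATL1, which links decapping factors to the deadenylated end of the message, had log2 fold changes between -0.02 and 0.02 with ZNF783 siRNA. Their libraries overlapped. DCP1A averaged 88.4 ± 2.65 CPM with ZNF783 siRNA and 87.8 ± 4.33 CPM in the controls. EDC4, the scaffold that joins DCP2 to its cofactors, averaged 111.5 ± 1.30 CPM with the siRNA and 112.4 ± 2.22 CPM in the controls.

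With ZNF783 siRNA the libraries of the groups did not overlap in 6 of the 10, all higher, against 38.2% of all genes in either direction, 18.3% in the higher and 19.8% in the lower direction. The count describes genes that were chosen on this contrast and is read no further.

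**Figure D2:**
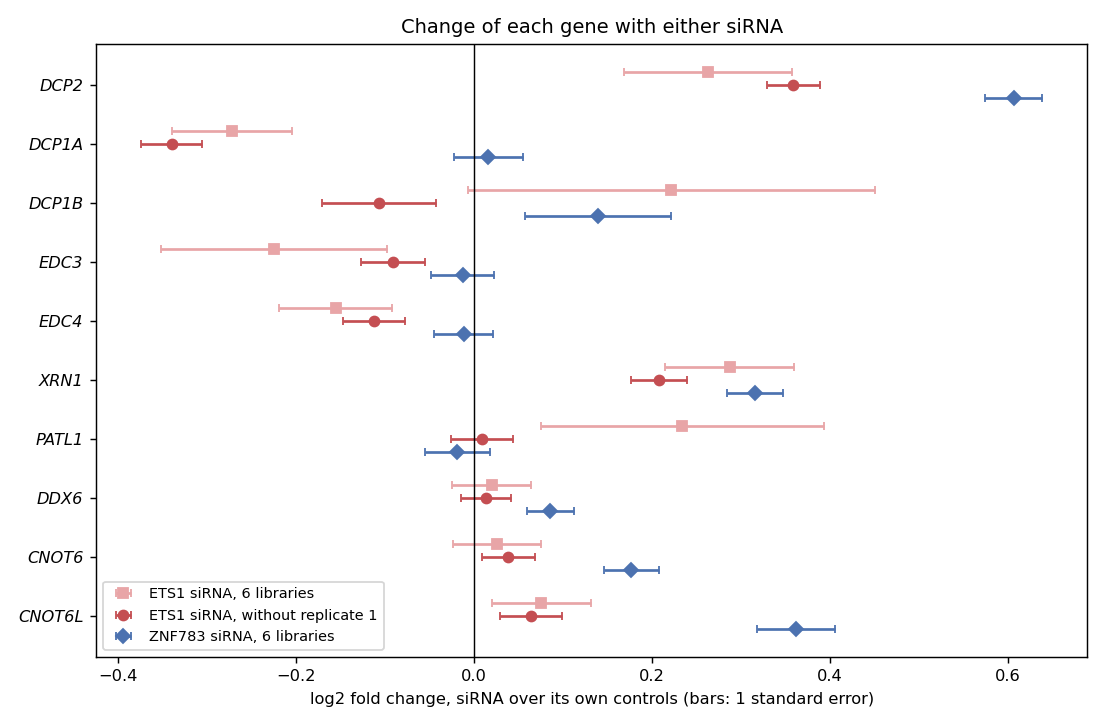
Log2 fold change of each gene, siRNA over its own controls (horizontal axis), for ETS1 siRNA with all 6 libraries, ETS1 siRNA without replicate 1, and ZNF783 siRNA. Bars are 1 standard error. DCP2 lies to the right of 0 in all 3 fits (0.26, 0.36 and 0.61), while DCP1A lies at -0.27 and -0.34 with ETS1 siRNA and at 0.02 with ZNF783 siRNA.

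The rise that drew up the group was not in the ETS1 siRNA contrast, so its values were tested. Earlier results of these data were known when the genes were chosen, which limits these tests. With all 6 libraries, none of the 10 genes passed in the edgeR test, where 0.0461% of the 19542 genes tested did, 0.0256% higher and 0.0205% lower. At an unadjusted p below 0.05 there were 4 of the 10 genes and 3535 of all genes. DESeq2 called 2 of the 10 (DCP1A and XRN1), against 3.76% of all genes, and limma-voom called 0, against 0.118%. Limma-voom with weights for library quality called 3 of the 10, against 19.8% of all genes. Without replicate 1, edgeR called 4 of the 10, of which 2 were higher (DCP2 and XRN1) and 2 lower (DCP1A and EDC4). In that fit 23.0% of 20237 genes were called, 9.96% higher and 13.0% lower.

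DCP2 measured 166.9, 211.0 and 210.4 CPM in ETS1 siRNA replicates 1 to 3, against 161.3, 166.7 and 162.6 CPM in the controls. Replicates 2 and 3 were alike, while replicate 1 lay only just above the highest control. With all libraries its log2 fold change came to 0.26 (SE 0.094, adjusted p = 0.238, edgeR). Without replicate 1 it was 0.36 (SE 0.03, adjusted p = 1.06e-14), or 1.28-fold.

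XRN1 measured 167.4, 144.2 and 144.4 CPM with ETS1 siRNA and 123.7, 128.0 and 121.6 CPM in the controls. All 3 siRNA libraries were above all controls, and here replicate 1 was the highest. For XRN1 the log2 fold change came to 0.29 (SE 0.073, adjusted p = 0.158, edgeR), and without replicate 1 it was 0.21 (SE 0.032, adjusted p = 5.54e-07).

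DCP1A (ENSG00000272886, chromosome 3, 53283428 to 53347610, minus strand), which binds DCP2 and stimulates it, lay on the other side of its controls from DCP2. It measured 83.8, 73.9 and 74.0 CPM with ETS1 siRNA, against 94.7, 93.3 and 91.5 CPM in the controls, so that every siRNA library was below every control. With all libraries its log2 fold change came to -0.27 (SE 0.067, adjusted p = 0.155, edgeR), and it was -0.34 (SE 0.034, adjusted p = 1.31e-11) without replicate 1.

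The enhancers of decapping were lower in every ETS1 siRNA library. EDC4 measured 69.1, 78.4 and 75.1 CPM with ETS1 siRNA and 83.9, 81.7 and 82.4 CPM in the controls (log2 fold change -0.16, adjusted p = 0.267, edgeR). Without replicate 1 EDC4 fell, with a log2 fold change of -0.11 (SE 0.035, adjusted p = 0.0138). EDC3 measured 52.5, 73.5 and 72.8 CPM with the siRNA and 80.4, 75.0 and 77.3 CPM in the controls. It did not pass with replicate 1 (-0.22, adjusted p = 0.366) or without it (-0.09, adjusted p = 0.0582).

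Replicate 1 set the values of DCP1B and PATL1. DCP1B stood at 28.4 CPM in ETS1 siRNA replicate 1 and at 16.2 and 15.5 CPM in replicates 2 and 3, against 15.4, 18.2 and 17.5 CPM in the controls. Its log2 fold change was 0.22 (adjusted p = 0.593, edgeR) with that library and -0.11 (adjusted p = 0.253) without it. PATL1 stood at 148.2 CPM in that library and at 97.8 and 99.8 CPM in the others, against 100.2, 100.6 and 92.6 CPM in the controls (0.23 with it, 0.01 without it, adjusted p = 0.429 and 0.891).

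DDX6, CNOT6 and CNOT6L showed no difference that passed with ETS1 siRNA in either edgeR fit. DDX6 averaged 398.7 ± 3.04 CPM with ETS1 siRNA and 393.2 ± 2.61 CPM in the controls (log2 fold change 0.02, 95% interval -0.08 to 0.12). CNOT6 averaged 182.7 ± 4.14 CPM with ETS1 siRNA and 179.4 ± 4.05 CPM in the controls (0.03, interval -0.09 to 0.14). CNOT6L averaged 89.8 ± 1.38 CPM with the siRNA and 85.2 ± 3.51 CPM in the controls (0.08, interval -0.05 to 0.21).

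The libraries of ETS1 siRNA and controls did not overlap for 5 of the 10 genes, with DCP2 and XRN1 higher and DCP1A, EDC3 and EDC4 lower. Over all genes tested this held for 35.3%, with 17.5% higher and 17.8% lower. Without replicate 1 it held for 6 of 10, CNOT6 being the addition, against 47.4% of all genes, 23.6% higher and 23.8% lower.

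The siRNA effects were set against each other in 1 fit of all 12 libraries, as the effect of ZNF783 siRNA minus that of ETS1 siRNA. DCP2 is left out of the counts, since its rise with ZNF783 siRNA drew up the group. The difference still contains the contrast behind the choice for the other 9 genes. Its p-values and counts for them are therefore read only as a description. None of the other 9 genes passed (edgeR), where 1.68% of 19594 genes did, 0.577% higher under ZNF783 siRNA and 1.11% lower. At an unadjusted p below 0.05 there were 3 of the 9 and 2928 of all genes. DESeq2 and limma-voom called 0 of the 9, against 3.38% and 1.55% of all genes. Limma-voom with quality weights called 2, against 12.8% of all genes. Without ETS1 siRNA replicate 1, 3 of the 9 passed, all with the higher value under ZNF783 siRNA, against 13.7% of 20018 genes in either direction, 7.41% in that direction and 6.25% in the other.

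DCP1A differed most without replicate 1. The difference of its log2 fold changes was 0.36 (SE 0.051, adjusted p = 6.55e-07, edgeR), since it was lower with ETS1 siRNA and near 0 with ZNF783 siRNA; with replicate 1 it was 0.27 (adjusted p = 0.128). CNOT6L differed by 0.30 (SE 0.059) and CNOT6 by 0.14 (SE 0.042) without replicate 1, and by 0.27 and 0.14 with it. Their log2 fold changes with ETS1 siRNA without replicate 1 were 0.06 and 0.04. Both differences thus come mainly from the ZNF783 contrast and are given as a description. DCP2 differed by 0.33 (SE 0.104) with all libraries and by 0.25 (SE 0.043) without replicate 1, given as a description. XRN1 differed by 0.01, with a 95% interval of -0.16 to 0.19, and by 0.11 without replicate 1 (interval 0.02 to 0.20, adjusted p = 0.0913).

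Many of the genes, not all, had low GC content or long 3′ untranslated regions. The choice did not name these properties, but GC content moved with the ZNF783 siRNA response behind the choice, as given below. Among 13643 coding genes tested with ZNF783 siRNA, with a median GC content of 48.5% in the longest transcript, 6 of the 10 genes fell in the lowest quintile: DCP2 (37.3%), DCP1B (37.4%), XRN1 (37.3%), DDX6 (40.0%), CNOT6 (39.0%) and CNOT6L (36.3%). DCP1A (44.1%) was in the next quintile, PATL1 (46.1%) in the middle one, EDC3 (53.4%) in the one above and EDC4 (59.4%) in the highest. Long 3′ untranslated regions were also common: 6 of the 10 were in the longest quintile, from 4152 bases in DCP1A to 7486 bases in DCP2, against a median of 991 bases. DCP1B, with 152 bases, and EDC4, with 355 bases, were short.

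GC content moved with the response of all genes. With ZNF783 siRNA, the median log2 fold change was 0.08 in the lowest GC quintile and -0.13 in the highest, and without ETS1 siRNA replicate 1 the medians with ETS1 siRNA were 0.08 and -0.11. By length of the 3′ untranslated region the medians with ZNF783 siRNA were -0.03 in the shortest quintile and 0.04 in the longest, and the part of that length in the results was not tested. A fit that removed a smooth dependence on GC content and length from each library left the log2 fold change of DCP2 with ZNF783 siRNA at 0.53, that of CNOT6L at 0.29, that of XRN1 at 0.24 and that of CNOT6 at 0.10. DDX6 then stood at 0.02 and EDC4 at 0.09.

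With ETS1 siRNA and all 6 libraries, the same correction left DCP2 at 0.089 (adjusted p = 0.778, edgeR), XRN1 at 0.088 (adjusted p = 0.355) and DCP1A at -0.34 (adjusted p = 0.0603), and it called none of the 10. Without replicate 1 it gave 0.26 for DCP2 (adjusted p = 2.59e-11, edgeR), -0.37 for DCP1A (adjusted p = 5.22e-13) and 0.10 for XRN1 (adjusted p = 0.00199). The lower value of EDC4 was not kept (-0.02, adjusted p = 0.656), and DCP1B was called lower (-0.21, adjusted p = 0.0118). This corrected fit called 20.1% of genes, 7.67% higher and 12.4% lower, and 4 of the 10. For the difference between the siRNA effects it called 4 of the 9 genes other than DCP2, all with the higher value under ZNF783 siRNA, against 16.3% of genes, 9.52% higher and 6.75% lower. XRN1 was the addition there, at 0.14 (SE 0.037), given as a description.

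**Figure D3:**
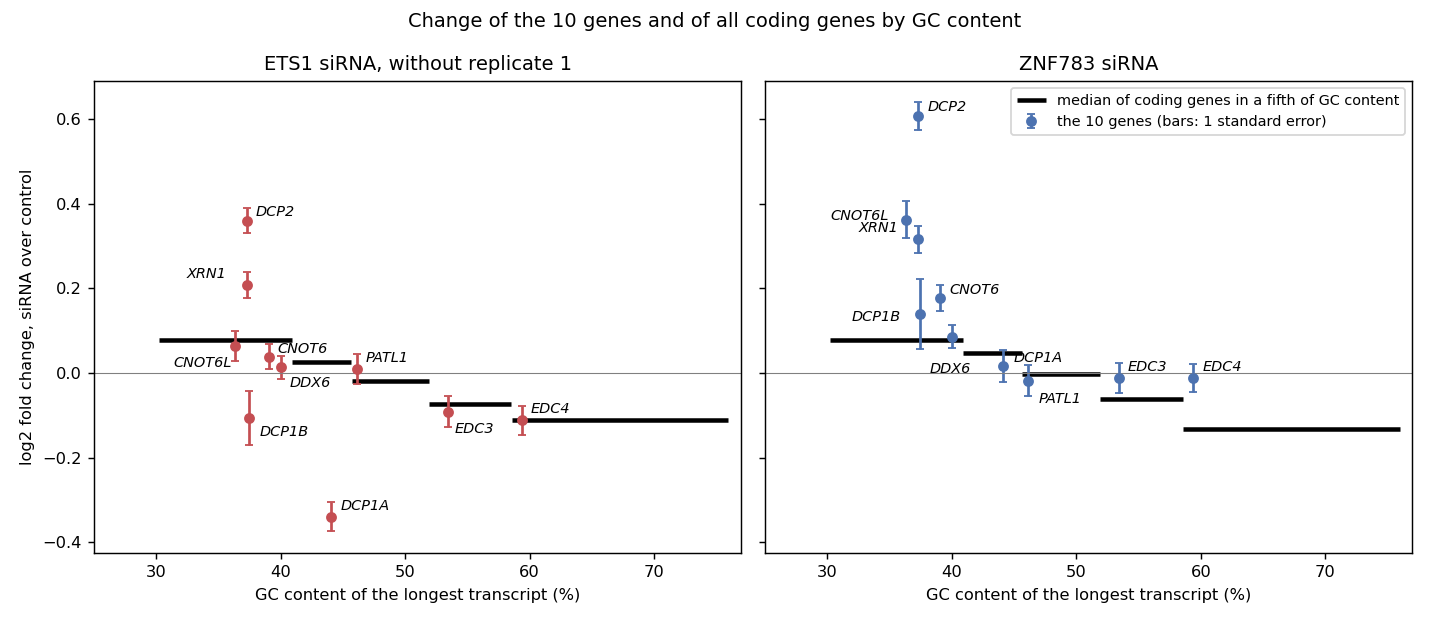
Log2 fold change of the 10 genes (points, bars of 1 standard error) against the GC content of the longest transcript in percent, for ETS1 siRNA without replicate 1 and for ZNF783 siRNA. Black segments are the medians of coding genes in each quintile of GC content. DCP2 lies above the segment of its quintile (0.08) in both panels, at 0.36 and 0.61, and EDC4 lies on the segment of its own quintile with ETS1 siRNA.

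The profile of DCP2 over the 12 libraries was compared with that of 10389 genes that averaged 10 CPM or more, each value taken as log2 CPM minus the mean of the controls of its own experiment. The 5 most similar genes outside the group were ERLIN2 (Pearson r = 0.985), HMGCS1 (0.979), ACVR2B (0.968), CD46 (0.967) and PDIK1L (0.959). ERLIN2 is an endoplasmic reticulum membrane protein, HMGCS1 an enzyme of cholesterol synthesis, ACVR2B an activin receptor, CD46 a regulator of complement and PDIK1L a protein kinase. HMGCS1 and ACVR2B had log2 fold changes of 0.45 and 0.43 with ZNF783 siRNA, below the 0.61 of DCP2. These coefficients describe 12 libraries that share depth and group, and carry no test.

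Within the group, CNOT6 (r = 0.931), CNOT6L (0.895), DDX6 (0.851) and XRN1 (0.708) followed DCP2 over the 12 libraries. The decapping cofactors and enhancers had lower coefficients: EDC3 had 0.138, EDC4 0.0268, DCP1B 0.0255, DCP1A -0.15 and PATL1 -0.232. The genes with high values are those of low GC content, with DCP1B as the exception.

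**Figure D4:**
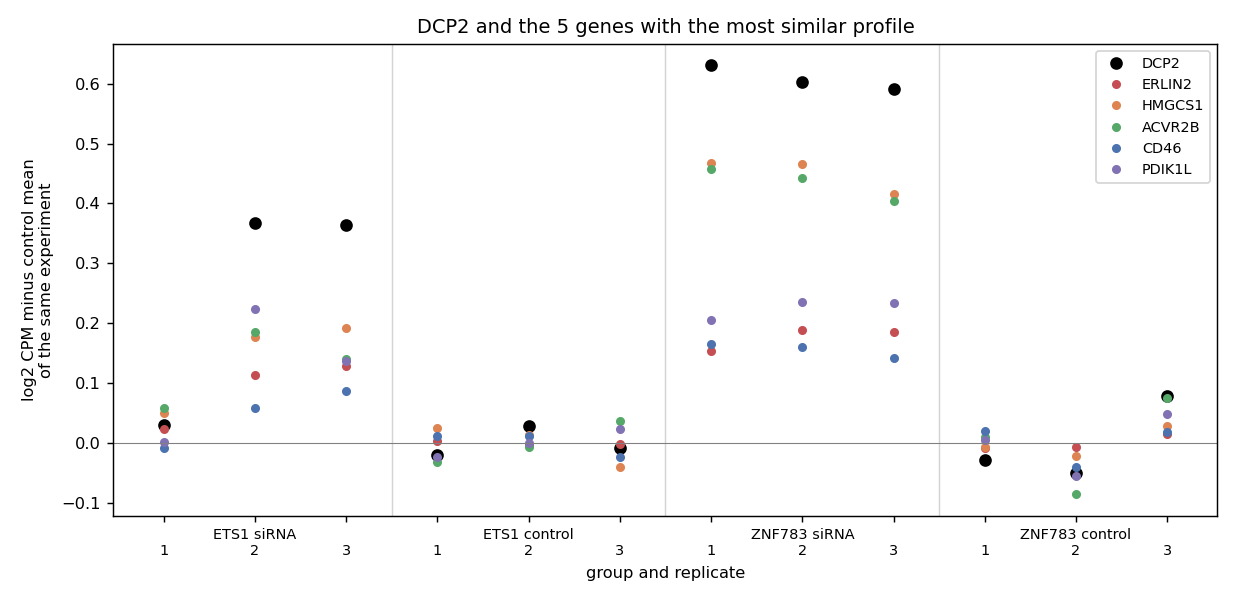
Profile of DCP2 (black) and of the 5 genes most like it over the 12 libraries, as log2 CPM minus the mean of the controls of the same experiment (vertical axis), by group and replicate. All 6 genes are above 0 in the ZNF783 siRNA libraries and in ETS1 siRNA replicates 2 and 3. Each is lower in ETS1 siRNA replicate 1 than in replicates 2 and 3, at -0.0083 (CD46) to 0.059 (ACVR2B).

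A wider set of 82 other genes of messenger RNA decay was examined in 5 lists, of which 80 genes were tested. The lists were drawn up with earlier results of these data known, so their counts and p-values are read as a description. LSM2 and DXO were not tested, at no more than 0.137 and 0.979 CPM in any library. Whether reads of these genes were lost in alignment or counting was not tested. With ZNF783 siRNA, 18 of the 80 rose and 5 fell, where 25.1% of the 17630 genes tested passed, 11.3% higher and 13.8% lower. After correction for GC content and length 11 rose and 7 fell, where 19.6% of all genes were called, 9.12% higher and 10.5% lower. With ETS1 siRNA none of the 80 passed in edgeR, where 0.0461% of all genes did. An unadjusted p below 0.05 was found for 11 of the 80 and for 3535 of 19542 genes. DESeq2 called 1 of the 80, limma-voom 0 and limma-voom with quality weights 16, against 3.76%, 0.118% and 19.8% of all genes. Without replicate 1, 7 rose and 19 fell, against 23.0% of all genes, 9.96% higher and 13.0% lower. Without replicate 1 and after the correction 2 rose and 22 fell, against 7.67% higher and 12.4% lower among all genes.

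Among other genes of decapping and 5′ to 3′ decay, 2 of 15 rose and 1 fell with ZNF783 siRNA, against 11.3% higher and 13.8% lower among all genes. After correction for GC content and length 3 rose and 3 fell, against 9.12% higher and 10.5% lower. PNRC2, which bridges DCP1A to the nonsense-mediated decay factor UPF1, measured 215.9 ± 1.77 CPM with the siRNA and 173.1 ± 4.58 CPM in the controls (log2 fold change 0.32, adjusted p = 1.19e-11, edgeR). The decapping enzyme NUDT16 rose less (0.16, adjusted p = 0.00753), and lost its call when ZNF783 siRNA replicate 1, control replicate 1 or control replicate 3 was left out (adjusted p = 0.0691, 0.0503 and 0.0903). LSM7, of the LSM ring that binds the shortened message end, fell (-0.28, adjusted p = 8.71e-05). With ETS1 siRNA without replicate 1, 2 of 15 rose and 5 fell, against 9.96% higher and 13.0% lower among all genes. Those lower included LSM14B (-0.20, adjusted p = 1.47e-05, edgeR), the scavenger decapping enzyme DCPS (-0.17, adjusted p = 5.45e-05) and LSM4 (-0.10, adjusted p = 0.0131). With replicate 1, LSM14B stood at -0.26, DCPS at -0.16 and LSM4 at -0.36 (adjusted p = 0.17, 0.19 and 0.446, edgeR). After the correction without replicate 1, LSM4 was not called (-0.02, adjusted p = 0.63, edgeR). The corrected list had 1 gene higher and 3 lower, against 7.67% higher and 12.4% lower among all genes.

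Among other genes of deadenylation, 5 of 20 rose and 1 fell with ZNF783 siRNA, against 11.3% higher and 13.8% lower among all genes. After correction for GC content and length 2 rose and 2 fell, against 9.12% higher and 10.5% lower. The uncorrected rises included the nuclease PAN2 (0.20, adjusted p = 1.38e-05, edgeR), the poly(A)-binding protein PABPC1 (0.14, adjusted p = 2.43e-05) and CNOT8, a deadenylase subunit (0.11, adjusted p = 0.017). The call of CNOT8 was lost after correction for GC content and length (adjusted p = 0.0751) and without ZNF783 siRNA replicate 1 or control replicate 2 (adjusted p = 0.0578 and 0.123). With ETS1 siRNA without replicate 1, TOB2 and TOB1, which recruit deadenylases to messages, fell: TOB2 measured 113.6 ± 3.05 CPM with the siRNA (n = 2) and 144.7 ± 3.06 CPM in the controls (n = 3; -0.36, adjusted p = 2.36e-13), and TOB1 gave -0.27 (adjusted p = 2.32e-10). The deadenylase CNOT7 rose by 0.13 (adjusted p = 0.000476), a call lost after the correction (0.0063, adjusted p = 0.894, edgeR); with replicate 1 it stood at 0.29 (adjusted p = 0.261). With replicate 1, TOB2 stood at -0.33 (adjusted p = 0.087, edgeR) and TOB1 at -0.02 (adjusted p = 0.952). In the fit without replicate 1, 2 of 20 rose and 3 fell, against 9.96% higher and 13.0% lower among all genes. With the correction 0 rose and 6 fell, against 7.67% higher and 12.4% lower.

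In the list of the RNA exosome and 3′ to 5′ decay, 1 of 17 rose and 0 fell with ZNF783 siRNA, against 11.3% higher and 13.8% lower among all genes. The riser was the exosome subunit EXOSC6 (0.13, adjusted p = 0.00252, edgeR). With ETS1 siRNA without replicate 1, 2 rose and 6 fell, against 9.96% higher and 13.0% lower among all genes. SKIC3, a SKI complex subunit, rose (0.16, adjusted p = 0.000305) and the exosome subunit EXOSC1 fell (-0.16, adjusted p = 0.00866). SKIC2, the SKI helicase, had the largest value (-1.64, adjusted p = 2.32e-06) but at a mean of only 0.404 CPM with the siRNA and 1.22 CPM in the controls. Whether reads of SKIC2 were lost in alignment or counting was not tested. With replicate 1, SKIC3 stood at 0.22, EXOSC1 at -0.16 and SKIC2 at -1.04 (adjusted p = 0.191, 0.27 and 0.264, edgeR). After the correction without replicate 1, SKIC3 was not called (0.071, adjusted p = 0.0951, edgeR). In that fit 0 of 17 rose and 5 fell, against 7.67% higher and 12.4% lower among all genes.

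Nonsense-mediated decay factors were mixed with ZNF783 siRNA: 2 of 10 rose, among them the kinase SMG1 (0.11, adjusted p = 0.00192, edgeR), and 2 fell, SMG5 (-0.15, adjusted p = 2.67e-05) and the helicase UPF1 (-0.11, adjusted p = 0.00539). Among all genes 11.3% were higher and 13.8% lower. After correction for GC content and length 0 of 10 rose and 1 fell, against 9.12% higher and 10.5% lower among all genes. SMG1 and UPF1 were then not called (0.06 and 0.0044, adjusted p = 0.0723 and 0.936, edgeR). With ETS1 siRNA without replicate 1, 3 of 10 fell, SMG5 (-0.15, adjusted p = 9.14e-05), SMG6 (-0.17, adjusted p = 0.0014) and UPF1 (-0.12, adjusted p = 0.00244), and none rose. Among all genes in that fit 9.96% were higher and 13.0% lower. With replicate 1, SMG5 stood at -0.26, SMG6 at -0.21 and UPF1 at -0.21 (adjusted p = 0.271, 0.202 and 0.288, edgeR). The correction without replicate 1 also gave 3 lower, against 12.4% of all genes. SMG5 at -0.076 (adjusted p = 0.0146, edgeR) was among them, but UPF1 was not called (-0.027, adjusted p = 0.518).

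Of the RNA-binding proteins that bring decay enzymes to messages, 8 of 18 rose and 1 fell with ZNF783 siRNA, against 11.3% higher and 13.8% lower among all genes. After correction for GC content and length 4 rose and 1 fell, against 9.12% higher and 10.5% lower. TNRC6A and TNRC6B, scaffolds that tie microRNA complexes to deadenylases, rose most. TNRC6A measured 154.2 ± 5.46 CPM with ZNF783 siRNA and 109.8 ± 0.32 CPM in the controls (0.49, adjusted p = 8.72e-16, edgeR), and TNRC6B gave 0.28 (adjusted p = 2.99e-09). The stem-loop binding protein RC3H1 rose by 0.20 (adjusted p = 4.72e-05). With ETS1 siRNA without replicate 1, TNRC6B rose (0.15, adjusted p = 7.41e-05), while KHSRP (-0.13, adjusted p = 0.000499) and TNRC6C (-0.17, adjusted p = 0.0204) fell. With replicate 1, TNRC6B stood at 0.25, KHSRP at -0.07 and TNRC6C at -0.10 (adjusted p = 0.199, 0.491 and 0.52, edgeR). After the correction without replicate 1, KHSRP was not called (-0.042, adjusted p = 0.205, edgeR). In that fit 1 of 18 rose and 5 fell, against 7.67% higher and 12.4% lower among all genes.

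**Figure D5:**
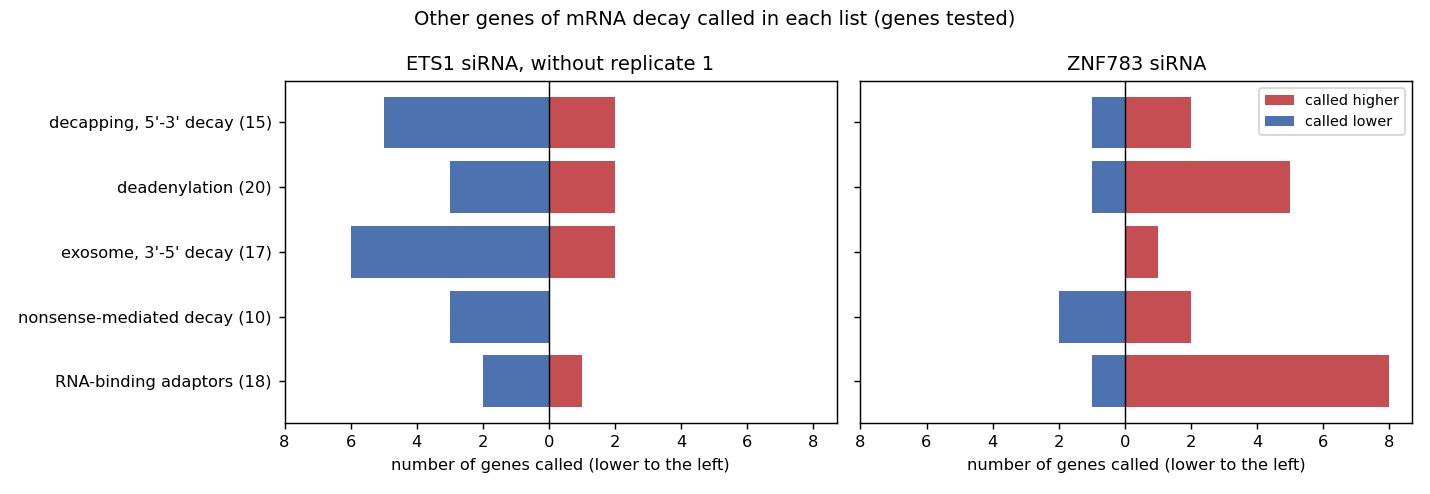
Number of genes in each of 5 lists of other messenger RNA decay genes called higher (right of 0) or lower (left of 0), for ETS1 siRNA without replicate 1 and for ZNF783 siRNA, with the number of genes tested in brackets. The RNA-binding adaptors show 8 higher and 1 lower with ZNF783 siRNA, and 1 higher and 2 lower with ETS1 siRNA. Among all genes 11.3% were called higher and 13.8% lower with ZNF783 siRNA, and 9.96% and 13.0% with ETS1 siRNA without replicate 1.

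In the test of the difference between the siRNA effects, 2 of the 80 list genes passed with all 12 libraries. TOB2 (0.33, adjusted p = 0.0104, edgeR) and TNRC6A (0.43, adjusted p = 0.0341) were higher with ZNF783 siRNA relative to ETS1 siRNA. TNRC6A did not pass when any single library other than ETS1 siRNA replicate 1 was left out (adjusted p = 0.0567 to 0.108). Without that library 19 of the 80 were higher and 1 lower, against 13.7% of all genes, 7.41% higher and 6.25% lower. PNRC2 was among those higher, at 0.40 (adjusted p = 1.71e-10, edgeR).

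Some values carry a limit of counting. The reads were counted without regard to strand, and exons of EDC3 share 701 bases with CLK3 on the opposite strand, so EDC3 and CLK3 reads cannot be told apart there. EDC4 shares 1311 exon bases with a non-coding gene on its own strand that had 5 to 20 counts per library. PATL1 and DDX6 overlap antisense genes over 64 and 51 bases. Levels per kilobase were divided by the full exon length over all transcripts, shared bases included. That length can far exceed 1 transcript: DDX6 has 11444 exon bases, against 1449 coding and 4339 3′ untranslated bases. EDC4 has 6173, against 4203 and 355, and EDC3 has 5103, against 1524 and 2054. With another length the order could differ. If reads over shared bases were not counted, the levels of EDC3 and EDC4 are too low and their places in the order uncertain. This was not tested.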

How the data were processed

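RNA-seq counts from 12 libraries of 22Rv1 cells were analysed. The authors deposited 1 table of raw counts per gene for each siRNA. Per the file headers, the authors counted paired-end alignments over exons by gene identifier with featureCounts 2.0.1 and a GRCh38 annotation of release 107, with no strand option. No aligner version is given in the sources used here, and the submitters' processing notes name build hg38. Per the labels, libraries were made with a directional kit from total RNA.

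Groups and replicate numbers came from the labels. Of 61860 genes, 61757 (99.8%) were matched to a symbol. In edgeR 4.0.16 (R 4.3.3), each siRNA was set against its own controls after the default expression filter and TMM scaling, by a robust quasi-likelihood F test on group alone. Benjamini-Hochberg adjustment covered every gene tested, and called means an adjusted p under 0.05. All 10 genes passed the filter in every fit. The difference between the siRNA effects was taken from 1 fit of all 12 libraries. Levels are CPM after TMM scaling, given as mean ± SD of the libraries. Standard errors come from the F statistic. Where ETS1 siRNA replicate 1 was left out, 2 siRNA libraries were set against 3 controls. The fits were tested on simulated data.

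The GC and length correction fitted log2 CPM of each library on natural splines of GC content and log length with 5 degrees of freedom each, and used the fit as an offset. Coordinates, exon lengths and GC content are from GENCODE 29 on GRCh38. Promoter windows are from RefSeq on GRCh38.p14. Total counts of 13518177 to 48996691 per library set the precision, and floors cover counting error only.

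The 10 genes and the 5 lists of other decay genes were chosen with earlier results of these data known. All 10 genes were named in every comparison, together with up to 3 called genes of the smallest adjusted p from each list, and the 5 genes most like DCP2. With ETS1 siRNA the list genes were taken from the fit without replicate 1, since none was called with it. PNRC2 was named for the difference without that library after its value was seen. Alternatives were scaling by DESeq2 size factors or by library size alone, omitting the filter, requiring 1 CPM in 3 libraries, DESeq2 1.42.0 with its Wald test, limma 3.58.1 (voom) with and without quality weights, the replicate number as a block, the GC and length correction, a fit of all 12 libraries and leaving out each library. The correction without ETS1 siRNA replicate 1, and the alternatives for the 5 lists, were added after seeing the data.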

Additional observations from a re-analysis of the deposited data

How the results depend on the processing

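The counts with ETS1 siRNA depend on ETS1 siRNA replicate 1 and on the tool. Genes called were 9 in the edgeR fit, 253 with no expression filter, 734 with DESeq2, 23 with limma-voom, 3863 with limma-voom and quality weights, 37 with the GC and length correction, 1875 in the fit of all 12 libraries and 4061 with the correction and without replicate 1. Leaving out each library gave 0 to 4649 genes, 0 to 4 of the 10 genes and 0 to 26 of the 80 list genes. Of the 10 genes, 2 were called with DESeq2, 3 with quality weights, 3 in the fit of all libraries and 4 with the correction without replicate 1. Of the list genes, 1 was called with no filter, 1 with DESeq2, 16 with quality weights, 6 in the fit of all libraries and 24 with the correction without replicate 1.

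With ZNF783 siRNA, 4428 genes were called by edgeR, 2718 by DESeq2 and 824 in the fit of all 12 libraries, and 3485 to 4127 when each library was left out. Leaving out each library gave 16 to 23 list genes. List genes numbered 15 with the correction and the replicate block and 4 in the fit of all libraries.

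For the difference between the effects, 330 genes were called by edgeR, 978 with no filter, 663 with DESeq2, 2503 with quality weights, 720 with the correction and 3257 with the correction without replicate 1. Leaving out each library gave 140 to 2735 genes, 0 to 4 of the 10 genes and 1 to 20 list genes. Of the 10 genes, DCP2 counted only as a description, 1 was called with no filter, 3 with quality weights, 2 with the correction and 5 with the correction without replicate 1; without DCP2 these were 0, 2, 2 and 4. List genes called were 9 with no filter, 11 with quality weights, 5 with the correction and 20 with the correction without replicate 1.

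The replicate numbers did not pair the samples, since same-numbered libraries deviated together by correlations of only -0.0434 to 0.0642. With the replicate block, genes called were 0 with ETS1 siRNA, 4476 with ZNF783 siRNA and 54 for the difference, and list genes for the difference were 0. With the block and the GC and length correction, 0 genes were called with ETS1 siRNA.

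Directions turned with the setting, mostly for small values but also for larger ones, such as those of DCP1B and TOB1 with ETS1 siRNA. With ETS1 siRNA, DCP1B was -0.082 with quality weights, -0.11 without replicate 1, 0.37 without replicate 3 and -0.21 with the correction as well, and PATL1 was -0.0048 in the last. EDC4 was 0.0026 with the correction and 0.0022 with the block added. In the corrected fit, the corrected fit with the block and the corrected fit without replicate 1, DDX6 was -0.13, -0.13 and -0.057, CNOT6 -0.12, -0.12 and -0.038, and CNOT6L -0.12, -0.13 and -0.051. TOB1 was 0.0040 by library size alone and ran from -0.27 without ETS1 siRNA replicate 1 to 0.089 without replicate 2, and KHSRP was 0.10 with the correction and 0.090 with the block added. With ZNF783 siRNA, UPF1 was 0.0044 with the correction and 0.0058 with the block added. For the difference, DCP1B was 0.0026 with limma-voom, 0.20 with quality weights, 0.033 with the correction, 0.058 with the block added, 0.25 without replicate 1 and 0.27 with the correction as well, and leaving out each library gave -0.24 to 0.25. XRN1 ran from -0.023 to 0.11 when each library was left out, below 0 without ETS1 siRNA replicate 2 (-0.02) or 3 (-0.02), ETS1 control replicate 2 (-0.007), ZNF783 siRNA replicate 2 (-0.007) or ZNF783 control replicate 2 (-0.00082). The cause was not tested. DCP1B, at 177 to 802 counts per library, is the gene most limited by depth.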
